A study of Mus musculus with 617 samples.

Results

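The Bcl2 family of apoptosis genes was followed through 617 single mouse cells from 13 groups. The 9 members were Bcl2, Bcl2l1 and Mcl1, which oppose apoptosis, Bax and Bak1, which are its effectors, and Bcl2l11, Bid, Bbc3 and Pmaip1, which are BH3-only activators or sensitizers. They were named as a family and found by Ensembl gene ID from their symbols, and all 9 were present among the 43628 genes of each table. The rule itself uses no measured value.

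Cells were profiled individually with SMART-seq2 followed by Tn5 tagmentation. Cultured cells derived from a female and a male ES cell line, bred from C57BL/6J mothers and CAST/EiJ fathers. In 2i plus LIF there were 60 female and 51 male ES cells. In serum plus LIF there were 68 female and 52 male ES cells. The Epi label stands for epiblast stem cells made with Activin A and FGF2, with 79 female and 63 male cells. The last state comprised cells carried through embryoid bodies with retinoic acid and the smoothened agonist SAG, labelled motor neuron, with 39 female and 35 male cells. A female Epi culture of 7 passages added 41 cells. Embryos of the same cross gave 23 cells of the E3.5 inner cell mass (ICM) and 23 of the E4.5 epiblast, without a labelled sex, and embryos of C57BL/6J parents gave 20 female and 63 male E5.5 epiblast cells. Each line supplied 1 culture per state, so a state had n = 2 cultures, line and sex were the same factor, and p-values measured the spread between these cultures. The motor neuron protocol also yields interneurons, per the labels' protocols.

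In the intrinsic pathway of apoptosis, Bax and Bak1 proteins permeabilize the outer mitochondrial membrane and release cytochrome c, which activates caspases. Bcl2, Bcl-xL (encoded by Bcl2l1) and Mcl1 proteins hold them back, and the BH3-only proteins Bim (Bcl2l11), Bid, Puma (Bbc3) and Noxa (Pmaip1) counter that restraint or engage the effectors directly. Pluripotent cells are known for a low threshold to mitochondrial apoptosis and postmitotic neurons for a higher one. Much of the control of these proteins lies in their stability, location and binding, which transcript levels do not show.

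Levels are FPKM, read fragments scaled to gene length and library size, so they can be compared between genes. The read depth of a cell was unknown. Group medians ran from 8122 to 10839.5 genes per cell at 1 FPKM, and the median FPKM sum was highest in the motor neuron cultures (1332433 female, 1478624 male) and lowest at E3.5 (612768) and E4.5 (511794). Mitochondrial genes took a median of 33.4% of the FPKM at E3.5, 16.4% at E4.5 and 7.39% to 17.6% elsewhere. Marker lists set the Epi cultures apart from each other: the summed pluripotency list had a median of 5726 FPKM in the female Epi culture and 789.6 in the male, against 3981 and 4663 in female and male serum ES cells, whereas the summed primed epiblast list had 129.4 and 548.3. The motor neuron cultures held cells with neuron markers and cells with endoderm markers. The summed trophectoderm and extraembryonic ectoderm list had a median of 182.9 FPKM at E3.5 and 1243 at E4.5. The summed decidua list had 38.6 in female and 8.90 in male E5.5 epiblast cells. The part of these markers in the differences between cultures and embryo groups was not tested. The 7-passage culture, the blastocyst cells and the E5.5 cells were deposited in tables of their own, normalised separately, so levels set across those tables were not tested.

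**Figure D1:**
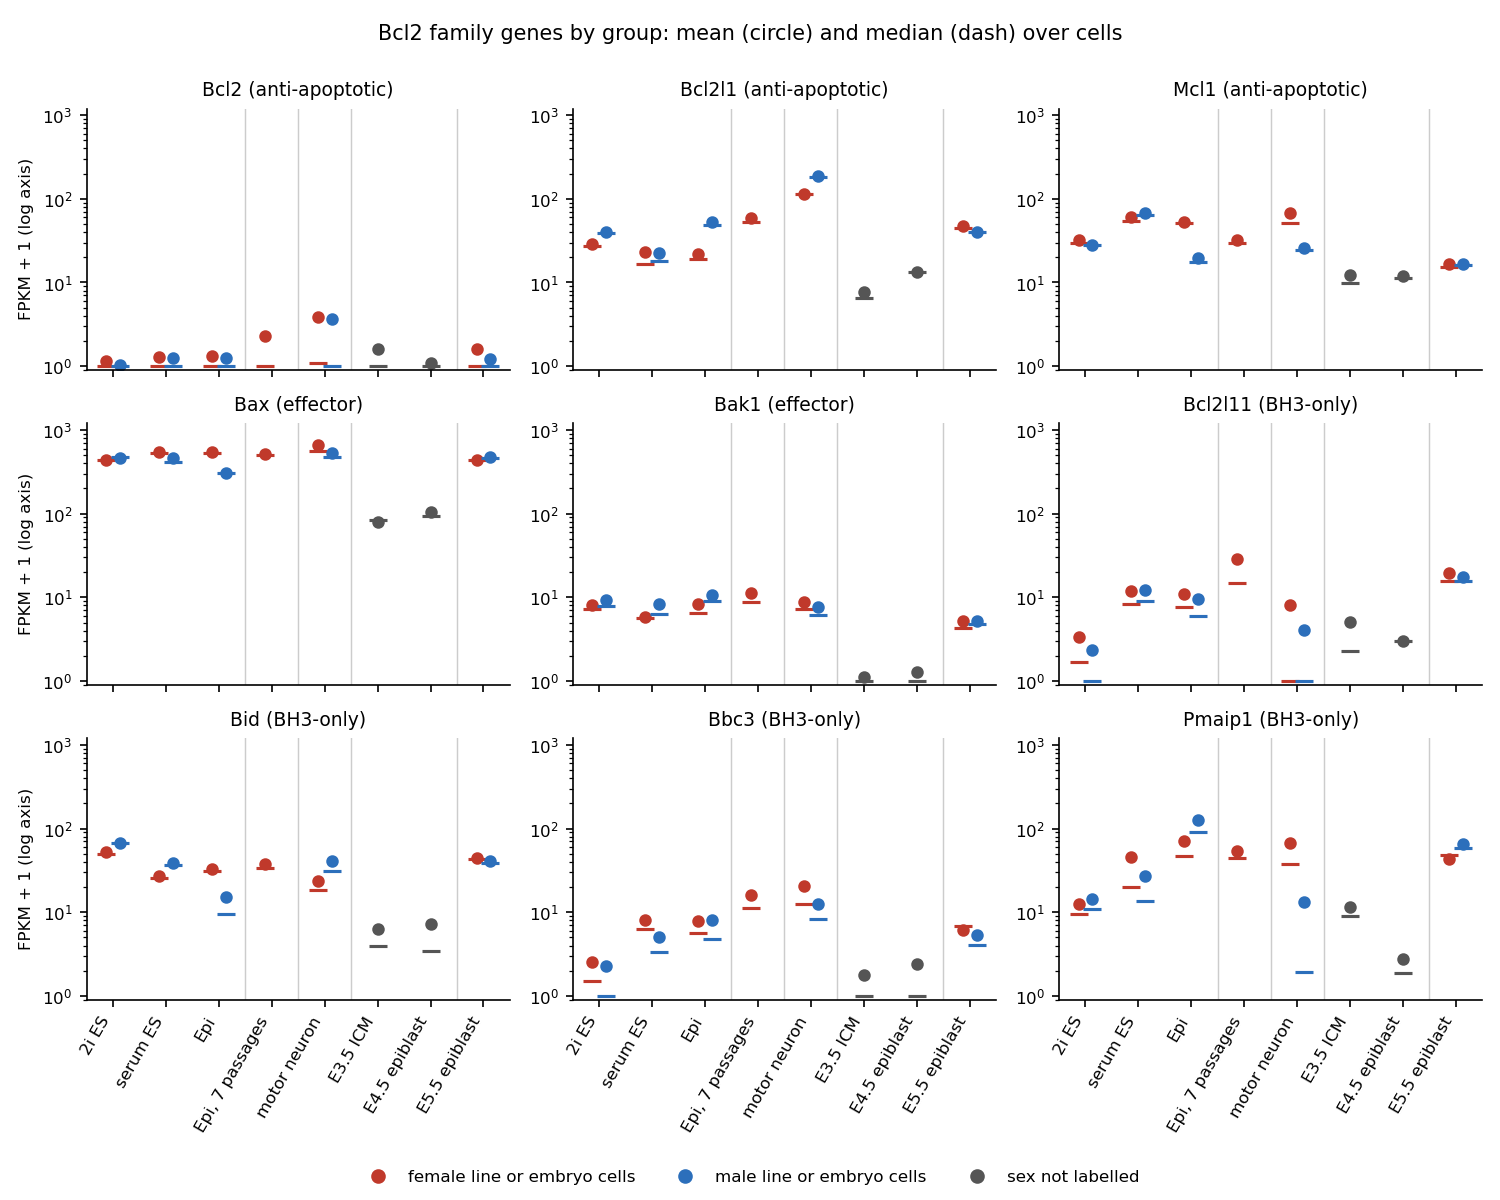
Mean (circle) and median (dash) FPKM + 1 over cells on a log axis, for each member in each labelled cell type or stage, with the female and male groups in separate colours. Bax sits above 300 FPKM in every group but E3.5 (78.3) and E4.5 (103.3), Bcl2 stays under 3 FPKM throughout, and Bcl2l1 has its highest means in the motor neuron cultures (114.03 and 187).

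Of the 9 members, 8 passed the filter of a mean of 1 FPKM over the 8 cultures and entered the limma fit, and Bcl2 did not. Changes are on the log2(mean FPKM + 1) scale. A call required both a change of 1 or more in either direction and an adjusted p below 0.05 (Benjamini-Hochberg over 15504 genes). For serum ES against 2i ES, 0 of the 8 were called higher or lower, against 0.00645% and 0.0129% of all genes. At an unadjusted limma p under 0.05 there were 2 members, Bcl2l11 and Bbc3, against 1549 genes or 9.99% of all. Both serum cultures lay above both 2i cultures for 4 of the 8 members and below them for 2, against 27.1% and 26.2% of all genes. For Epi against serum ES, 0 of the 8 were called, against 0.0322% of genes higher and 0.00645% lower, and none had an unadjusted limma p under 0.05 where 1000 genes did, 6.45% of all. There 2 members lay above and 2 below without overlap, against 29.5% and 11.9% of all genes. For motor neuron against serum ES cultures, 2 of the 8 were called higher, Bcl2l1 and Bbc3, and 0 lower, against 30.1% and 2.70% of all genes. Both motor neuron cultures lay above for 2 members and below for 1, against 54.8% and 15.9% of all genes.

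The member counts are set against a broad shift in the motor neuron contrast. The median change over all genes there was 0.71, with 4669 genes called higher and 419 lower. With each cell rescaled to 1 FPKM sum the median was 0.14 and the calls were 2166 and 971 (14.2% and 6.36% of genes). With upper-quartile scaling it was -0.06, with 1923 and 1757 calls (12.5% and 11.4%). Under both scalings Bcl2l1 was called higher and Bcl2l11 lower, and Bbc3 and the remaining members were not called. In the main fit the median over the 8 members was 0.10, under that of all genes. In the other contrasts the members' median was 0.62 (serum against 2i, all genes 0) and 0.05 (Epi against serum, all genes 0.12).

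**Figure D2:**
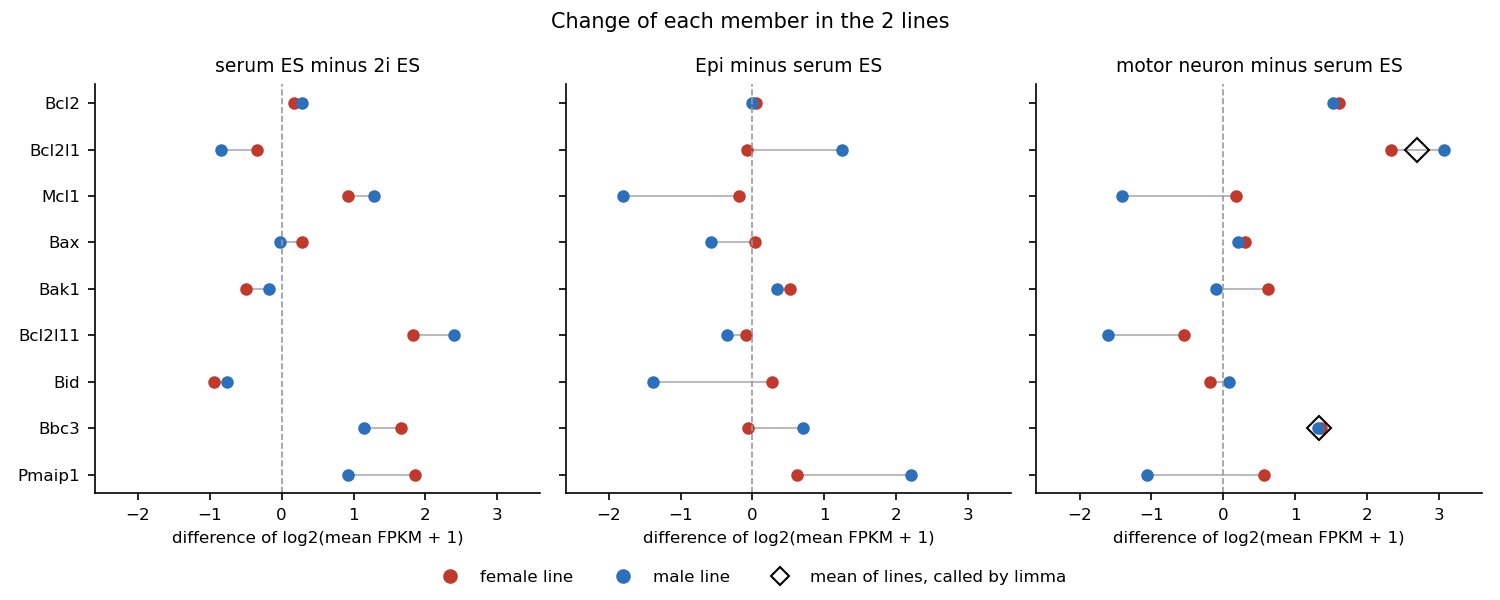
Difference of log2(mean FPKM + 1) of each member in the female and the male line for the 3 contrasts, with a diamond at the mean where limma called it. Bax and Bak1 in the motor neuron panel change sign with rescaled cells. Bcl2l1 (2.70) and Bbc3 (1.34) carry the diamonds, both in motor neuron against serum ES. The lines lie furthest apart for Mcl1 and Pmaip1 in that panel, and for Bid, Mcl1, Pmaip1 and Bcl2l1 in Epi against serum ES. Bcl2 was below the filter and could carry no diamond.

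Bcl2l1 encodes Bcl-xL, the anti-apoptotic member known for the survival of developing neurons. Its mean level was 28.2 and 39.2 FPKM in female and male 2i ES cells, 21.9 and 21.3 in serum, 20.7 and 51.7 in Epi, and 114.03 and 187 in motor neuron cultures. Both motor neuron cultures stood above each of the other 11 groups, the nearest being the 7-passage Epi culture at 57.4. Over single cells the lowest, median and highest values were 0, 112.5 and 356.6 FPKM in the female and 37.9, 183 and 499.7 in the male motor neuron culture, against 0, 15.8 and 101.3 and 0, 17.02 and 68.9 in female and male serum ES cells. The cells of the states overlapped, while the medians were far apart. Bcl2l1 rose by 2.70 (SE 0.47, limma adjusted p = 0.00796), by 2.33 in the female and 3.07 in the male line. It rose by 2.07 with rescaled cells (limma adjusted p = 0.0269) and by 1.79 with upper-quartile scaling (0.0282). Without the female serum culture the limma adjusted p was 0.0553 and without the male one 0.0527, with changes of 2.72 and 2.68. From 2i to serum the difference was -0.60 (SE 0.47, limma adjusted p = 0.812), and from serum to Epi 0.58 (SE 0.47, limma adjusted p = 0.767), which was -0.08 in the female and 1.24 in the male line.

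Because Bcl2l1 carried the larger of the called changes, the 250 bases before the most upstream of its 3 RefSeq starts are shown (GRCm38.p6, chr2:152831729-152831978, minus strand, 5′ to 3′). No exon of the GENCODE M21 annotation touched this window.
Bcl2l1: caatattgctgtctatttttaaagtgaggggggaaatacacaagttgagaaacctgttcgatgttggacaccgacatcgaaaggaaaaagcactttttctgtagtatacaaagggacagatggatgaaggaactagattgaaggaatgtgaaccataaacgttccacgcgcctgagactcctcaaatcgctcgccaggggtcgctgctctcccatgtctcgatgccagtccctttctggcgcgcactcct
This window held 12 CpG pairs and a GC content of 47.6%, and GGGCGG, the core of a GC box, occurred in 0 of the 3 Bcl2l1 windows on either strand. Of the 13 windows of the 8 members with an entry, 9 held GGGCGG, against 32.7% of all 32851 RefSeq windows of that length. The median window had 6 CpG pairs.

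Mcl1 encodes an anti-apoptotic protein that turns over fast. Its mean level was 30.8 and 26.8 FPKM in female and male 2i ES cells, 59.5 and 67.03 in serum, 52.3 and 18.5 in Epi, and 67.4 and 24.7 in motor neuron cultures. The lines stayed together in both ES media and separated in Epi and motor neuron cultures, with the female culture the higher. From 2i to serum the difference was 1.11 (SE 0.60, limma adjusted p = 0.671) with no overlap of cultures. From serum to Epi it was -0.18 in the female and -1.80 in the male line (mean -0.99, SE 0.60, limma adjusted p = 0.728). From serum to motor neuron it was 0.18 and -1.41 (mean -0.61, limma adjusted p = 0.449). Embryo groups had the lowest Mcl1 levels, 11.0 to 15.5 FPKM.

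Bcl2 itself, the founding member of the family, was under 1 FPKM on average outside the motor neuron and 7-passage cultures. Its mean was 0.138 and 0.0364 FPKM in female and male 2i ES cells, 0.279 and 0.267 in serum, 0.320 and 0.265 in Epi, and 2.90 and 2.67 in motor neuron cultures. Cells at 1 FPKM or more made up 25.6% (10 of 39 cells, exact Clopper-Pearson 95% interval 13.0 to 42.1) and 28.6% (10 of 35, 14.6 to 46.3) of the female and male motor neuron cultures, against 7.35% and 3.85% in serum and 1.67% and 0 in 2i. In male 2i ES cells 0 of 51 cells reached 1 FPKM, which allows a share of up to 6.98%. These intervals cover counting error only. The 7-passage Epi culture had a mean of 1.32 FPKM and 43.9% of cells at 1 FPKM (18 of 41). By mean, though not by share of cells, Bcl2 was highest in the motor neuron cultures, where its median over cells was 0.101 FPKM (female) and 0 (male). Its SD over cells there was 5.45 (female) and 5.28 (male). In a fit without the low-value filter, over 33861 genes, Bcl2 was higher by 1.57 in motor neuron than serum ES cultures (SE 0.17, limma adjusted p = 0.00835). That unfiltered fit used values near the floor and was not repeated with rescaled cells or upper-quartile scaling.

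Bax, the main effector transcript, was the most abundant member in every group. Its mean level was 442 and 466 FPKM in female and male 2i ES cells, 539 and 456 in serum, 552 and 305 in Epi, and 664 and 527 in motor neuron cultures. Every cell of the 8 cultures was above 84 FPKM. No contrast moved it past the threshold: the differences were 0.13 (SE 0.30, limma adjusted p = 0.998), -0.27 (SE 0.30, 0.832) and 0.25 (SE 0.30, 0.529) in the order 2i to serum, serum to Epi and serum to motor neuron. The motor neuron value turned to -0.36 with rescaled cells and -0.67 with upper-quartile scaling. The male Epi culture was the low one among the cultures.

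Bak1, the other effector, ran far below Bax. Its mean was 7.18 and 8.38 FPKM in female and male 2i ES cells, 4.80 and 7.29 in serum, 7.29 and 9.52 in Epi, and 7.90 and 6.74 in motor neuron cultures. Bak1 was 0.888% to 3.13% of the Bax level outside the blastocyst. It was 0.163% at E3.5 and 0.263% at E4.5, where 1 of 23 and 2 of 23 cells reached 1 FPKM. None of its 3 contrasts passed the threshold (differences -0.34, 0.43 and 0.26, limma adjusted p = 0.862, 0.742 and 0.526), and the motor neuron difference was -0.18 with rescaled cells and -0.53 with upper-quartile scaling.

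Bcl2l11 encodes Bim, a BH3-only protein able to bind all the anti-apoptotic members. Mean levels came to 2.32 and 1.34 FPKM in female and male 2i ES cells, 10.8 and 11.3 in serum, 10.0 and 8.60 in Epi, and 7.09 and 3.05 in motor neuron cultures. The 2i cultures were the low ones, and they overlapped no serum or Epi culture. Over cells the lowest, median and highest values were 0, 0.669 and 10.9 FPKM in female and 0, 0 and 11.4 in male 2i cells, and 0, 7.33 and 104.1 and 0, 8.16 and 54.5 in serum. From 2i to serum Bcl2l11 differed by 2.11 (SE 0.40, unadjusted limma p = 0.0015, adjusted p = 0.146), by 1.83 in the female and 2.395 in the male line, the largest difference of the 8 members in this contrast. The adjusted p ran from 0.0434, with log2 values averaged over cells, to 0.716 over the alternatives. From serum to motor neuron it differed by -1.07 (SE 0.40, limma adjusted p = 0.0801). That value was past the threshold with rescaled cells (-1.45, limma adjusted p = 0.0355), with upper-quartile scaling (-1.83, 0.0274), with log2 values averaged over cells (-1.93, 0.0102). It was also past it without the female motor neuron culture (-1.57, limma adjusted p = 0.0223), where the lone male culture is assumed to vary like the other groups. The Bcl2l11 call was made in 5 of 21 alternatives, and the other 16 gave none, as in the main fit. Over all 21 the change ran from -1.93 to -0.571. Cells at 1 FPKM or more made up 92.6% and 82.7% of female and male serum ES cells, and 33.3% and 22.9% of the motor neuron cultures.

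Bbc3 encodes Puma, a BH3-only protein and classical transcriptional target of p53. Averages over cells were 1.57 and 1.27 FPKM in female and male 2i ES cells, 7.10 and 4.02 in serum, 6.79 and 7.15 in Epi, and 19.7 and 11.5 in motor neuron cultures. The lowest, median and highest cells were 0, 11.6 and 108.7 FPKM in the female and 0, 7.24 and 61.5 in the male motor neuron culture, and 0, 5.28 and 40.6 and 0, 2.32 and 19.9 in serum. Both motor neuron cultures stood above both serum cultures, and both serum cultures above both 2i cultures. Bbc3 rose by 1.34 from serum to motor neuron (SE 0.37, limma adjusted p = 0.0352), by 1.35 and 1.32 in the 2 lines. The call held in 7 of 21 alternatives. Leaving out 1 culture at a time, it was kept without the female Epi or the male motor neuron culture and lost without any of the other 6 (limma adjusted p = 0.0505 to 0.18). The change was 0.71 with rescaled cells (limma adjusted p = 0.219) and 0.51 with upper-quartile scaling (0.416). Between 2i and serum it differed by 1.40 (SE 0.37, unadjusted limma p = 0.00852, adjusted p = 0.261).

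Pmaip1 encodes Noxa, a BH3-only protein that binds Mcl1 by preference. Cultures averaged 11.6 and 13.4 FPKM in female and male 2i ES cells, 44.7 and 26.4 in serum, 69.2 and 125.3 in Epi, and 66.7 and 12.1 in motor neuron cultures. The Epi cultures were the high ones and the male motor neuron culture was as low as the 2i cells. Between 2i and serum it differed by 1.39 (SE 0.76, limma adjusted p = 0.674) and from serum to Epi by 1.41 (SE 0.76, limma adjusted p = 0.727), with no overlap of cultures in either. From serum to motor neuron the female line differed by 0.57 and the male by -1.07. Its cells were widely spread: in the male Epi culture they ran from 0 to 614.5 FPKM around a median of 89.9.

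Bid links death receptors to mitochondria once cleaved by caspase 8. On average it stood at 51.3 and 65.3 FPKM in female and male 2i ES cells, 26.2 and 38.2 in serum, 31.7 and 14.0 in Epi, and 22.8 and 40.3 in motor neuron cultures. The 2i cultures were the high ones, and both serum cultures lay below them (difference -0.85, SE 0.46, limma adjusted p = 0.676). From serum to Epi it differed by 0.27 in the female and -1.38 in the male line. Over the 8 cultures Bid and Pmaip1 had the strongest inverse relation of the 36 member pairs (Pearson r = -0.91, Spearman rho = -0.86), a description over cultures that share lines and media.

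Bcl2l11 and Bbc3 were the members with an unadjusted limma p under 0.05 from 2i to serum, and the forkhead (FOXO) core motif GTAAACA, searched on both strands, occurred in 1 window of each. Bax is shown as the most abundant member, with a match to the p53 half-site consensus. Each run holds the 250 bases before a RefSeq start, on the gene's strand, 5′ to 3′ (GRCm38.p6), and capitals mark the motif. The windows are chr2:128125788-128126037 (plus) for Bcl2l11, chr7:16310011-16310260 (plus) for Bbc3 and chr7:45466899-45467148 (minus) for Bax, and no GENCODE M21 exon touched them.
Bcl2l11: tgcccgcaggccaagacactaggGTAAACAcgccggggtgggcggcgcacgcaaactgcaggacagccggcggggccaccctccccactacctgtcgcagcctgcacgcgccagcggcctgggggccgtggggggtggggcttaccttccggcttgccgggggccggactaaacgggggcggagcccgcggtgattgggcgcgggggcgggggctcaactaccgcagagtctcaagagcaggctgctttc
Bbc3: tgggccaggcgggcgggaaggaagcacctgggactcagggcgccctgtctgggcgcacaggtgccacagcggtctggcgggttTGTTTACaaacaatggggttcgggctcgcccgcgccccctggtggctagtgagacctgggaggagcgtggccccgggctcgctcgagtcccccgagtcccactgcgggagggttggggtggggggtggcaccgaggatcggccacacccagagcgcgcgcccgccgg
Bax: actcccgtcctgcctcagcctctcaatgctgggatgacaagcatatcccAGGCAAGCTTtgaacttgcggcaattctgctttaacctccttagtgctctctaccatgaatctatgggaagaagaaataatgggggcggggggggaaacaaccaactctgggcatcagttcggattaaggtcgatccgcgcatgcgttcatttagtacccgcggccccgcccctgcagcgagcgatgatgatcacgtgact
GTAAACA occurred in 3.17% of all 32851 windows and in 2 of the 13 windows of members. In the Bcl2l11 window it spans -227 to -221 from the start, and in the Bbc3 window -167 to -161. The p53 half-site consensus of 10 bases occurred in 7.13% of all windows and in 1 of the 13, that of Bax, at -201 to -192. These are matches of letters, and no binding was measured.

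The make-up of the anti-apoptotic sum changed with the state. Mcl1 was 52.1% and 40.6% of the summed Bcl2, Bcl2l1 and Mcl1 level in female and male 2i ES cells and 72.8% and 75.6% in serum. It was 71.3% in the female and 26.3% in the male Epi culture, 36.6% and 11.5% in motor neuron cultures, and 34.6% in the 7-passage Epi culture. The 7-passage female culture thus lay nearer the male Epi culture than the earlier female one. Mcl1 exceeded Bcl2l1 in 63 of 68 female and 48 of 52 male serum ES cells, and in 10 of 39 female and 1 of 35 male motor neuron cells. In the BH3-only sum, Bid made up 76.8% and 80.3% in 2i and 29.5% and 47.8% in serum, while Pmaip1 reached 80.8% in the male Epi culture.

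**Figure D3:**
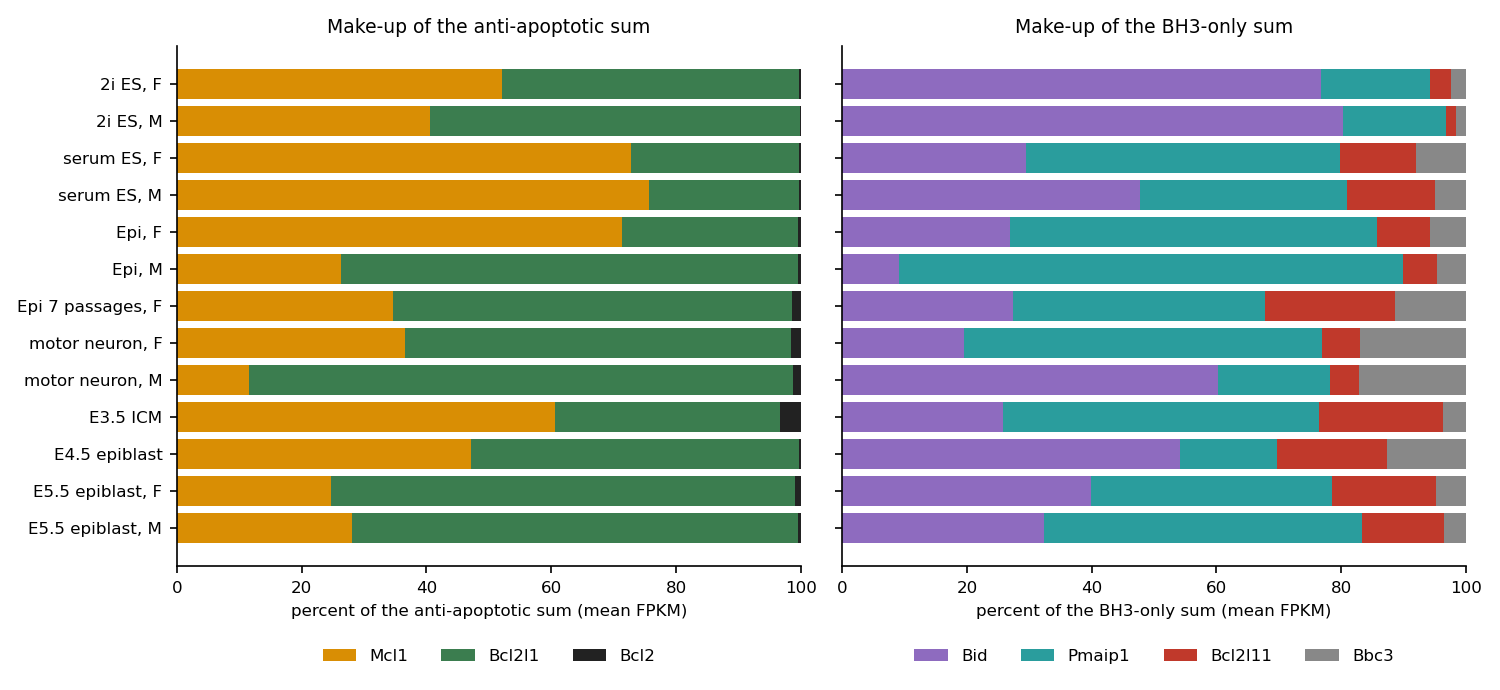
Percent of the anti-apoptotic sum (left) and of the BH3-only sum (right) of group mean FPKM that each member took, 1 bar per group, F for female and M for male. Mcl1 takes 72.8% and 75.6% of the anti-apoptotic sum in serum ES cells and 11.5% in the male motor neuron culture, and Bid takes 76.8% and 80.3% of the BH3-only sum in 2i.

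The balance was taken as the log2 ratio of the summed FPKM of the 6 pro-apoptotic members to that of the 3 anti-apoptotic ones, from group means, and carries no test. It was 3.12 and 3.07 in female and male 2i ES cells, 2.95 and 2.62 in serum, 3.21 and 2.74 in Epi, and 2.10 and 1.49 in motor neuron cultures. The motor neuron cultures were the lowest of all 13 groups. Bax made up 64.9% to 89.9% of the pro-apoptotic sum, so the ratio mostly set Bax against Bcl2l1 and Mcl1. The mean over both lines was 0.992 lower in motor neuron than serum cultures (SD 0.19 over n = 2 lines, both lower), and without Bcl2l1 in the sum it was 0.763 higher. The differences between the other states were small (serum minus 2i -0.313, SD 0.202; Epi minus serum 0.186, SD 0.095; n = 2 lines) and changed sign with the members summed or the cells used. In cells with the lower run of title numbers serum minus 2i was 0.140 and with the higher run -0.595, and the labels do not say what these numbers are. The 68 female serum cells form a single run and entered both versions, and the lower run of male serum held 13 cells. With the BH3-only sum alone over the anti-apoptotic sum, the log2 ratio was 0.683 and 1.14 in Epi and -0.665 and -1.68 in motor neuron cultures.

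**Figure D4:**
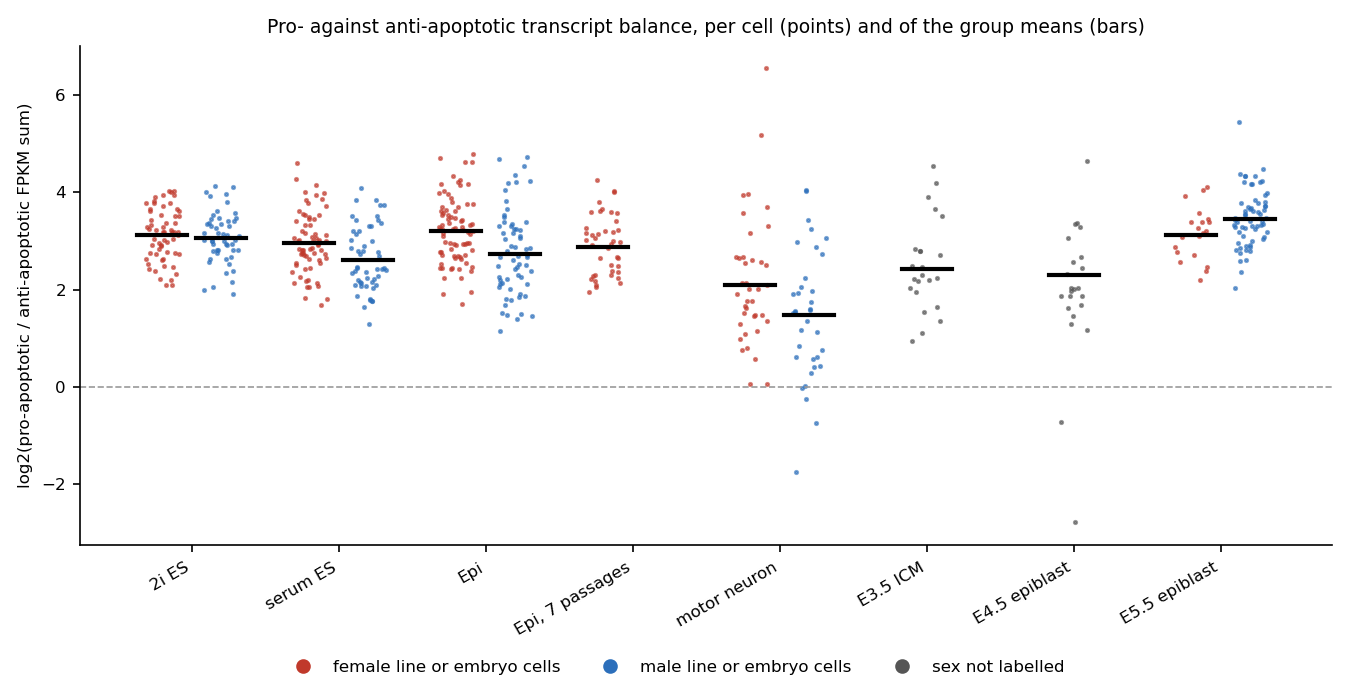
Log2 ratio of pro- to anti-apoptotic FPKM sums, with each cell as a point and the ratio of the group means as a bar. For the points, but not the bars, 1 FPKM was added to both sums. The bars lie between 2.30 and 3.45 except in the motor neuron cultures (2.10 and 1.49), where the cells are spread from -1.74 to 6.56.

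Cells also differed within a group. For the balance of a single cell, 1 FPKM was added to both sums. The SD of the balance over cells was 0.536 and 0.531 in 2i ES cells, 1.32 and 1.33 in female and male motor neuron cultures, 0.951 at E3.5 and 1.45 at E4.5. The anti-apoptotic sum exceeded the pro-apoptotic sum in 4 of 35 male motor neuron cells and in 2 of 23 E4.5 cells, and in no cell of the other 11 groups. The lowest Bax value at E4.5 was 0.753 FPKM, against a group mean of 103.3. The highest ratio, 6.56, came from a female motor neuron cell in which Bcl2l1 was listed at 0.

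Because the motor neuron cultures were mixed, each of their cells was assigned to the neuron, endoderm or pluripotency list with the highest mean log2(FPKM + 1). In the female culture 13, 14 and 12 cells fell to these lists, and in the male 18, 17 and 0. The classes are ranges of a score, not cell types, and 6 of the 12 female pluripotency cells lay within 1 log2 unit of the next list. Bcl2 was higher in the neuron-list cells of both cultures: its mean was 7.56 FPKM against 0.112 in endoderm-list cells of the female culture, and 4.35 against 0.879 in the male. It reached 1 FPKM in 8 of 13 and 9 of 18 neuron-list cells, and in 0 of 14 and 1 of 17 endoderm-list cells. Bcl2l1, in contrast, was high in both: 129 and 117.5 FPKM in the female culture and 240 and 130 in the male. Bax was lower in neuron-list than endoderm-list cells, 483 against 575 FPKM in the female and 349 against 715 in the male culture. Bid was higher, 28.5 against 18.02 and 55.6 against 24.1. The balance was 1.71 against 1.91 in the female and 0.714 against 2.31 in the male culture. Mcl1 was alike in both lists, 50.6 and 53.6 FPKM in the female and 25.2 and 24.1 in the male. The part of the marker lists in the gap between the lines was not tested. Female pluripotency-list cells had 101.9 FPKM of Mcl1, 93.5 of Bcl2l1 and 965 of Bax over 12 cells, and 130.9, 54.2 and 533 over the 6 that led the next list by at least 1. Bcl2l11 in female neuron-list cells was 10.1 FPKM over 13 cells and 1.11 over the 11 that led the next list by at least 1. With 2 cultures these differences were not tested.

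**Figure D5:**
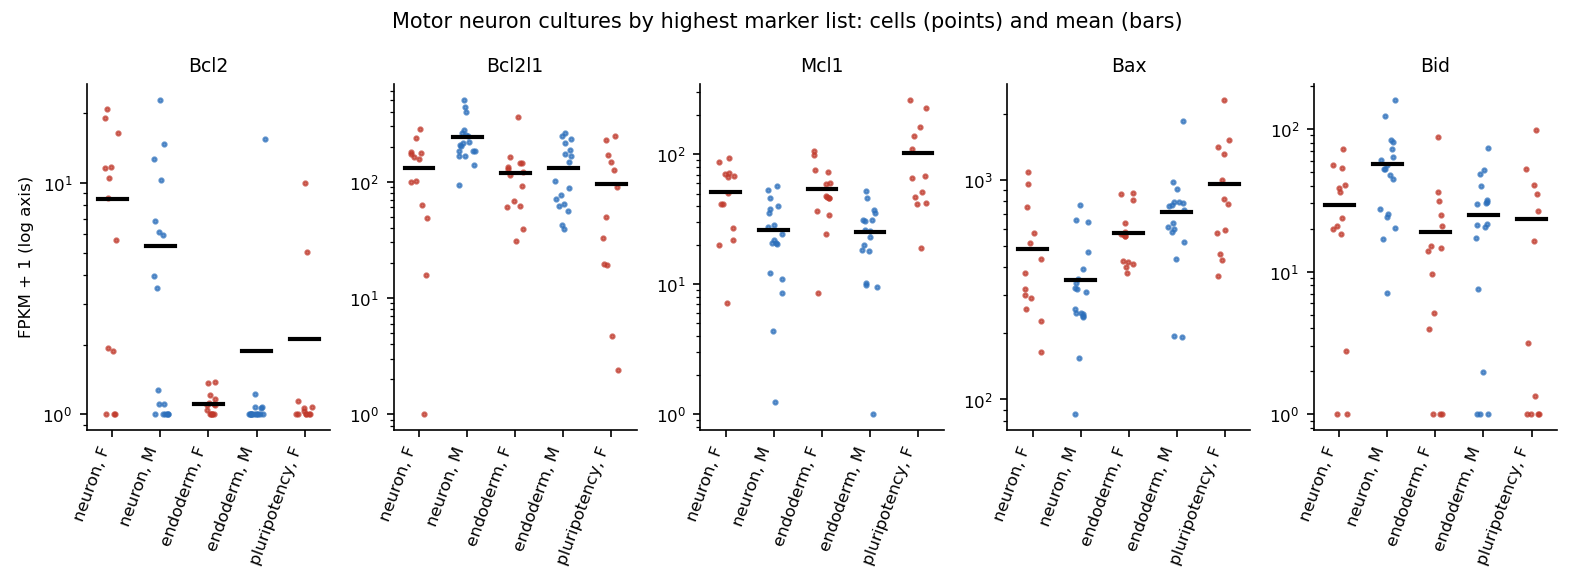
FPKM + 1 on a log axis of 5 members in motor neuron cultures, by the marker list with the highest score, with cells as points, means as bars, F for female and M for male. Bcl2 points rise above 1 FPKM in 8 of 13 female and 9 of 18 male neuron-list cells, in 1 endoderm-list cell and in 2 of 12 pluripotency-list cells, while Bcl2l1 is high in both lists.

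In the embryo, the blastocyst stages had low levels of most members. Bax was 78.3 FPKM at E3.5 and 103.3 at E4.5, against 434 and 473 in female and male E5.5 epiblast. Bcl2l1 was 6.62, 12.2, and 46.6 and 39.6 in the same order. Bid was 5.32, 6.16, and 43.8 and 40.4, and Bcl2l11 was 4.09, 2.02, and 18.3 and 16.5. Pmaip1 was 10.47 at E3.5, 1.77 at E4.5, and 42.3 and 64.05 at E5.5. Mcl1 differed least, at 11.1, 11.0, and 15.5 in both sexes. The E5.5 cells came from another cross and another table, and the difference in table, cross and stage cannot be told apart.

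Between E3.5 and E4.5, within 1 table, Pmaip1 differed most, by -2.05 on the log2(mean FPKM + 1) scale, from 19 of 23 to 9 of 23 cells at 1 FPKM. Cells carry a leading number in their titles, which the labels do not explain. At E4.5 the median mitochondrial share was 69.5% and 45.7% for numbers 4 and 5 (2 cells each), and 7.37% to 17.3% for the others. Over the 4 numbers at E3.5 (4 to 7 cells each) the mean of Pmaip1 ran from 8.33 to 15.8 FPKM. Over the 7 at E4.5 (2 to 7 cells each) it ran from 0 to 3.35, without overlap. Bcl2l1 differed by 0.80, with ranges of 4.49 to 8.41 and 6.17 to 18.2 FPKM that overlapped. Bcl2 was 0.612 FPKM at E3.5, which rested on 1 cell of 13.8 FPKM, and 0.0823 at E4.5. Bbc3 was 0.761 and 1.43 FPKM. Mcl1 differed by -0.01, and by 0.28 with each cell rescaled to 1 FPKM sum. The balance was 2.43 and 2.30, a difference smaller than the SD of 0.461 over leading numbers, and it was -0.412 without the E4.5 cells of leading number 9. Titles of E3.5 cells end in further numbers that titles of E4.5 cells lack, so stage and title format cannot be told apart. These stages were 1 sample each and were not tested.

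Female and male groups were compared as a description, with 1 sample per arm. At E5.5 the largest difference of the 9 members was Pmaip1 at -0.59 (female minus male, log2 scale). In 2i ES cells the largest was Bcl2l11 at 0.51 and in serum Pmaip1 at 0.73. In Epi they were wider, Mcl1 at 1.45, Bcl2l1 at -1.28 and Bid at 1.12, and in motor neuron cultures Pmaip1 at 2.37 and Mcl1 at 1.41. No member was higher in the same sex in all 5 states but Bcl2, at levels under 3 FPKM. In the 7-passage female Epi culture Bcl2l1 was 57.4 FPKM and Mcl1 31.1, against 20.7 and 52.3 in the earlier female and 51.7 and 18.5 in the male culture. Bcl2l11 was highest there of all groups, at 27.7 FPKM over cells from 0 to 189.6.

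Around the family, 41 genes of 4 arms were followed: 11 further Bcl2 relatives, 13 of the caspase arm, 6 of the death receptor arm and 11 of the p53 arm. Of the 38 that passed the filter, 0 were called from 2i to serum and 0 from serum to Epi. At an unadjusted limma p under 0.05 there were 2 and 1 of the 38, against 9.99% and 6.45% of all genes. Between 2i and serum the highest and lowest were Bik (2.14, limma adjusted p = 0.273) and Bcl2l14 (-0.49) of the Bcl2 relatives, Cflar (0.71) and Ripk1 (-0.70) of the death receptor arm, and Perp (2.29) and Cdkn1a (-1.51) of the p53 arm. The lowest of the caspase arm was Casp9 (-0.83). Bik is a further BH3-only gene, at 0.821 and 2.29 FPKM in female and male 2i ES cells and 9.83 and 9.78 in serum. Cdkn1a, the cell cycle inhibitor p21, was 390 and 597 FPKM in 2i and 197 and 144.3 in serum. From serum to Epi they were Bcl2l12 (0.71) and Bik (-0.82), Casp6 (1.09) and Xiap (-0.72), Tnfrsf1a (1.90) and Ripk1 (-0.08), and Sesn2 (1.07) and Cdkn1a (-0.32). Tnfrsf1a, a TNF receptor, was 7.42 FPKM in the female and 109.96 in the male Epi culture.

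In motor neuron against serum ES cultures, 14 of the 38 were called higher and 1 lower, against 30.1% and 2.70% of all genes, with a median change of 1.21 against 0.71 over all genes. By arm, 2 of 8 Bcl2 relatives, 5 of 13 caspase genes, 3 of 6 death receptor genes and 4 of 11 p53 genes rose, and 1 of the 11 fell, to be read against the same 30.1% and 2.70%. The count over the list was 5 higher and 1 lower with rescaled cells, against 14.2% and 6.36% of all genes. It was 2 and 3 with upper-quartile scaling, against 12.5% and 11.4%. Fas, the death receptor, rose most, from 1.40 and 0.330 FPKM in female and male serum cultures to 41.04 and 23.1, by 4.16 (SE 0.42, limma adjusted p = 0.00263). Bad, a BH3-only gene, rose from 23.2 and 29.8 to 123.1 and 134.5 FPKM, by 2.25 (SE 0.26, limma adjusted p = 0.00337), and both were called in all 20 alternatives. Phlda3, a p53 target, rose by 2.35 (limma adjusted p = 0.0171), by 1.87 with rescaled cells, and was called in 13 of 20 alternatives. Casp6, an executioner caspase, rose by 2.10 (limma adjusted p = 0.0165) and was called in 14 of 20. Trp53, which encodes p53, fell by 1.63 (SE 0.38, limma adjusted p = 0.0198), from 412 and 419 to 183 and 97.4 FPKM, and was called in 15 of 20. The lowest changes of the remaining arms were Bik at -1.66 (limma adjusted p = 0.0716), Birc5 at -0.12 and Fadd at 0.70, none past the threshold. The high FPKM sum of motor neuron cells moves with these counts, and its part was not tested beyond the rescaled values.

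Genes with the pattern most like each member over the 8 cultures were found among 7515 genes of at least 10 FPKM, by Pearson r of log2(mean FPKM + 1). They were Ginm1 for Bcl2 (r = 0.995), Tcf7l2 for Bcl2l1 (0.998), Brix1 for Mcl1 (0.964), Focad for Bax (0.964), Prpf38b for Bak1 (0.880), Magohb for Bcl2l11 (0.961), Mir686 for Bid (0.978), Pdlim7 for Bbc3 (0.985) and Ranbp1 for Pmaip1 (0.986). Each is the highest r in a search of 7515 genes over 8 cultures that share 2 lines. Such a search yields high values by itself. Rank correlations of the same genes ran from 0.62 (Prpf38b with Bak1) to 1 (Mir686 with Bid). Mir686 is annotated as a miRNA. Among the members, Bcl2 and Bcl2l1 had the highest positive value (r = 0.87), with a rank correlation of 0.24. Both stood highest in the motor neuron cultures, and their order differed among the other 6.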

How the data were processed

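FPKM values per gene and cell were deposited by the authors in 4 tables. Per the submitters' processing notes, STAR 2.4.1, Cufflinks and Cuffnorm 2.2.1 were used with build mm10. Counts were not used here, so the depth per cell is unknown. Of 43628 Ensembl IDs, 42548 matched GENCODE M21. In 356 values an exponent was broken and read as a small number (at most 9.7552e-05 FPKM).

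Cells were grouped by labelled type, sex and table. A culture was the mean FPKM over its cells, and 8 cultures entered 1 limma 3.58.1 fit (R 4.3.3, trend = TRUE, 4 residual degrees of freedom) on log2(mean FPKM + 1), filtered at a mean of 1 FPKM. The script was tested on simulated data. The lines pair by their labels across states. Over 15504 genes, the gap between the lines correlated across states at r = 0.061 to 0.163. A fit with line as replicate block served as an alternative. The members and lists were chosen with earlier results of these data known. Of the pathway list, called genes (the 3 largest each way if over 10) and the highest and lowest of each arm are named, and for each member the gene with the highest r. The highest change of 1 arm is not reported here.

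Summed marker lists, as the range of group medians, were 0 to 1457 FPKM (neuron), 0.0926 to 782 (endoderm), 11.7 to 6143 (pluripotency), 0 to 1081 (primed epiblast), 4.33 to 1243 (trophectoderm and extraembryonic ectoderm) and 0 to 38.6 (decidua). The comparison of sexes and of blastocyst stages had 1 sample per arm and no test. RefSeq promoter windows (GRCm38.p6) were matched by symbol for 8 of 9 members.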

Additional observations from a re-analysis of the deposited data

Results flagged for a closer look

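In 10 cases the female and the male line moved in opposite directions under the same contrast. With 1 culture per line and state the difference was not tested. The values below are the female minus the male log2 change, and every one comes from single cultures.

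From 2i to serum ES cells, Bax differed between the lines by 0.316, a size set by 0.29 in the female and -0.03 in the male line. From serum ES to Epi, the values were 0.0469 for Bcl2, -1.32 for Bcl2l1, 0.614 for Bax, 1.65 for Bid and -0.755 for Bbc3. Bcl2 in that list was under 1 FPKM in all 4 cultures. The male line had the larger change for Bcl2l1, Bax, Bid and Bbc3, and the female Epi culture was the one with the high pluripotency list.

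From serum ES to motor neuron cultures, the values were 1.58 for Mcl1, 0.717 for Bak1, -0.266 for Bid and 1.64 for Pmaip1. The female motor neuron culture held 12 cells assigned to the pluripotency list and the male held 0. Within neuron-list cells alone Mcl1 was 50.6 FPKM in the female and 25.2 in the male culture, and Pmaip1 was 66.8 and 12.9. The part of the pluripotency-list cells in the gap between the lines was not tested.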

How the results depend on the processing

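Replicate 1 of a state is the female line and replicate 2 the male line. The female serum culture had a single run of title numbers, used whole in both run settings. Where 1 culture is left out, the lone culture of its state is assumed to vary like the other groups. With the line as a replicate block, 0, 0 and 2 members were called in the 3 contrasts, as without it, and the limma adjusted p was 0.00619 for Bcl2l1 and 0.026 for Bbc3. The number of members called from 2i to serum was 1 in place of 0 with log2 values averaged over cells. All-gene calls in that setting were 11 higher and 213 lower of 15504, against 1 and 2 in the main fit. From serum to motor neuron, of the 8 members that passed the filter, it was 1 in place of 2 with no low-value filter (Bcl2l1 kept, Bbc3 lost, and Bcl2 called besides these 8), with only the 4 cultures compared, with the 7-passage Epi culture and with the lower run of title numbers, and it ranged from 0 to 2 when 1 culture was left out. The cause was not tested.

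Balance differences that turned or moved were, for serum minus 2i, 0.395 as a mean of log2 over members, 0.738 without Mcl1, 0.140 and -0.595 in the lower and higher run, and -1.004 without Bcl2l1. For Epi minus serum they were 0.314, 0.910 without Bax, -0.651 without Mcl1, -0.103 in the lower run, 0.955 without Bcl2l1 and -0.027 without Pmaip1. For motor neuron minus serum they were -2.53 without Mcl1, -1.38 and -0.735 in the lower and higher run, and 0.763 without Bcl2l1. For E4.5 minus E3.5 they were -1.18 without Bax, 0.295 without Bcl2l1 and 0.00578 without Pmaip1. Leaving out the cells of 1 leading number gave -0.412 to -0.00317. The versions without Bcl2l1 or Pmaip1 and the rescaling and high-sum versions of the blastocyst comparison were chosen after seeing the data.

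Changes that took the other sign were, from serum to Epi, Bbc3 (-0.0231 without the male serum culture, otherwise up to 0.667, and -0.0559 in the lower run), Bcl2l1 (-0.0595), Bax (0.154) and Bid (0.00226) without the male Epi culture against 1.22, -0.701 and -1.12 without the female one, and Bcl2l11 (0.46) with the 7-passage culture. From serum to motor neuron they were Bak1 (-0.0106 with log2 averaged over cells, -0.18 rescaled, -0.53 upper quartile), Bax (-0.36 rescaled, -0.67 upper quartile), Pmaip1 (0.117 without the female serum culture, -1.44 to 0.934 without either motor neuron culture, 0.369 in the higher run), Bid (0.207 with the female serum culture alone, -0.456 to 0.34 without either motor neuron culture, 0.367 in the higher run) and Mcl1 (0.0933 without the male motor neuron culture, -1.32 without the female). None of these passed the threshold. From E3.5 to E4.5, Bcl2 was 0.0574 rescaled and 0.0978 without cells of a high FPKM sum, and Mcl1 0.285 rescaled. Between marker lists with a lead of at least 1, Bak1 was -0.0938 (female), and Bcl2l11 -0.16 and Pmaip1 -0.27 (male). Depth is unknown, so values near 1 FPKM are imprecise.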
